A study of Mus musculus with 16 samples.

Results

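The 10 genes examined here make, elongate and desaturate fatty acids: Acly, Acaca, Fasn, Elovl5, Elovl6, Scd1, Scd2, Fads1, Fads2 and the regulator Srebf1. They were chosen by gene symbol among the 24421 genes of the count files, and all 10 were among the 13429 genes expressed highly enough to be tested. Epithelial cells were released with EDTA from the jejunum and the ileum of C57BL6/J mice and profiled by bulk RNA sequencing. The 4 groups were P6 jejunum, P6 ileum, P36 jejunum and P36 ileum, where P6 and P36 are postnatal days 6 and 36. Each group held 4 libraries from 4 mice, 2 female and 2 male, and each of the 8 mice gave both regions. At P6 the titles give replicates 1 and 3 one shared prefix and replicates 2 and 4 another, and what the prefix marks is not stated. The titles label the mice WT (wild type), and no sample carried a treatment. P6 mice are suckling and P36 mice are weaned.

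Fatty acid synthesis starts in the cytosol, where citrate is split into acetyl-CoA, acetyl-CoA is carboxylated to malonyl-CoA, and fatty acid synthase joins these units into palmitate. Elongases and desaturases of the endoplasmic reticulum then lengthen the chain and add double bonds. Stearoyl-CoA desaturases make the monounsaturated fatty acids of membranes and triglycerides, whereas the FADS enzymes act on polyunsaturated chains. The small intestinal epithelium takes up dietary fat and packs it into chylomicrons, and transcription of the synthetic enzymes is governed largely by the SREBP family, of which Srebf1 encodes one member.

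Region and age were read from the same libraries. Total counts ranged from 12159237 to 25947276 per library. Levels are given as CPM, counts scaled to library size with TMM factors, which correct for differences in library composition. Epcam, a marker of epithelium, was high throughout, at 1137 to 2230 CPM, and Cdh1 was at 792 to 1064. Other epithelial markers were higher at P36. Krt8 was at 256 to 1331 CPM in P6 ileum and 4812 to 6101 in P36 ileum. The 5 epithelial markers summed to 4619 to 4838 CPM in P6 jejunum and 10210 to 10760 in P36 jejunum. In ileum they summed to 3658 to 5979 CPM at P6 and 12280 to 14860 at P36. The part of this in the age comparisons was not tested. Gata4, a jejunal transcription factor, was at 155 to 164 CPM in P6 jejunum and 3.25 to 34.7 in P6 ileum, and at 174 to 193 in P36 jejunum and 0.735 to 31.6 in P36 ileum. Fabp6, the ileal bile acid binding protein, was at 3727 to 9114 CPM in P36 ileum and 1.71 to 8.21 in P36 jejunum. It reached only 6.13 to 74.3 in P6 ileum, against 0 to 0.893 in P6 jejunum. Slc10a2, also read as an ileal marker, was at 0.245 to 4.66 CPM in P6 ileum and 0 to 0.144 in P6 jejunum. Fgf15, another ileal marker, did not separate the regions at P6, at 35.05 to 232 CPM in ileum and 97.7 to 172 in jejunum. At P36 it was at 1.59 to 82.3 CPM in ileum and 0.0441 to 0.480 in jejunum. The P6 ileum libraries of replicates 2 and 4 stood apart. Replicate 2 held markers of smooth muscle and fibroblasts, with Myh11 at 80.5 CPM and a summed level of the 8 markers of 393 CPM, the highest of its group, whose lowest was 21.0. Replicate 4 was depleted of GC-rich genes. Its deviation from the other 3 libraries correlated with exonic GC content across 12948 genes (Spearman's rho = -0.74), whereas the other 15 libraries lay between -0.21 and 0.47. This is a description across genes, which are not independent replicates.

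All 10 genes were at the edge of their group in P6 ileum replicate 4, of which 5 were lowest there (Srebf1, Fasn, Fads2, Acly and Scd2) and 5 highest (Elovl6, Elovl5, Fads1, Acaca and Scd1). In that library, Srebf1 (58.4% GC) stood at 15.8 CPM against 136 to 181 in replicates 1 to 3, and Fasn (57.9% GC) at 29.3 against 192 to 325. Fads2 stood at 40.9 against 65.9 to 94.2 and Acly at 74.9 against 113 to 133. Elovl6 (44.0% GC) was at 226 CPM against 117 to 187. Across all genes, the median deviation of this library was 0.71 on the log2 scale for genes under 40% GC and -2.35 for genes of at least 60% GC. The title prefix also showed in P6 jejunum. There the chi-square per gene was 19.5 and 13.2 for the pairs that share a prefix and 34.3 to 45.9 for the others. In P6 ileum such pairs were at 20.4 and 265 and the others at 40.9 to 272. The pairs with replicate 4 were at 226 to 272. In P36 jejunum, without such a prefix, pairs ran from 13.9 to 31.9. The 4 P6 mice may not be fully independent, in which case p-values of the age comparisons are too small. Each prefix holds both regions, so this does not follow for the P6 regional difference. For that difference 3653 genes passed with the prefix as a covariate and 3484 without. The part of replicate 4 in each result was tested by leaving it out. Results that rest on P6 ileum are given with and without this library where it changed a call of a member. Changes in size alone, and changes in other pathway genes, are given for some genes only.

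**Figure D1:**
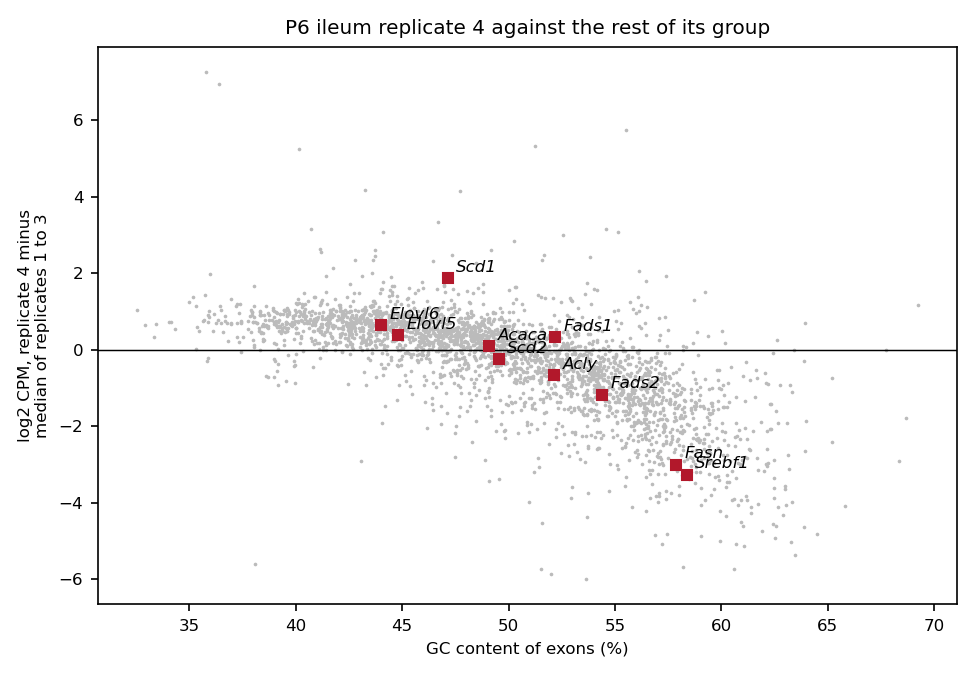
Log2 CPM in P6 ileum replicate 4 minus the median of replicates 1 to 3 (vertical axis) against the GC content of each gene's exons in percent (horizontal axis). Grey points are a random draw of the tested genes and red squares the 10 members; Srebf1, at 58.4% GC, lies lowest of the members, at -3.27.

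Most regional calls among the 10 genes were toward ileum at both ages. At P6, 6 genes passed the test (adjusted p below 0.05) as higher in ileum (Scd2, Scd1, Acaca, Fasn, Fads2 and Fads1) and 0 as higher in jejunum, where 14.8% and 11.1% of all genes tested passed in those directions. At P36, 6 genes were higher in ileum (Scd2, Scd1, Acly, Acaca, Fads2 and Elovl5) and 1, Elovl6, in jejunum, against 7.8% and 8.3% of all genes. From P6 to P36, 5 genes rose in jejunum (Scd2, Scd1, Acaca, Fads2 and Fads1) and Srebf1 fell, where 24.7% of all genes rose and 26.9% fell. In ileum 4 rose (Scd1, Fads2, Acly and Acaca) and 0 fell, against 25.5% and 30.1% of all genes. The median log2 difference of jejunum over ileum was -0.88 for the 10 genes and -0.05 for all genes at P6, and -0.99 and -0.04 at P36. The age comparisons were less far from the background, with medians of 0.60 and -0.01 in jejunum and 0.12 and -0.03 in ileum. In bulk samples, fewer cells of a type and less RNA per cell cannot be told apart.

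**Figure D2:**
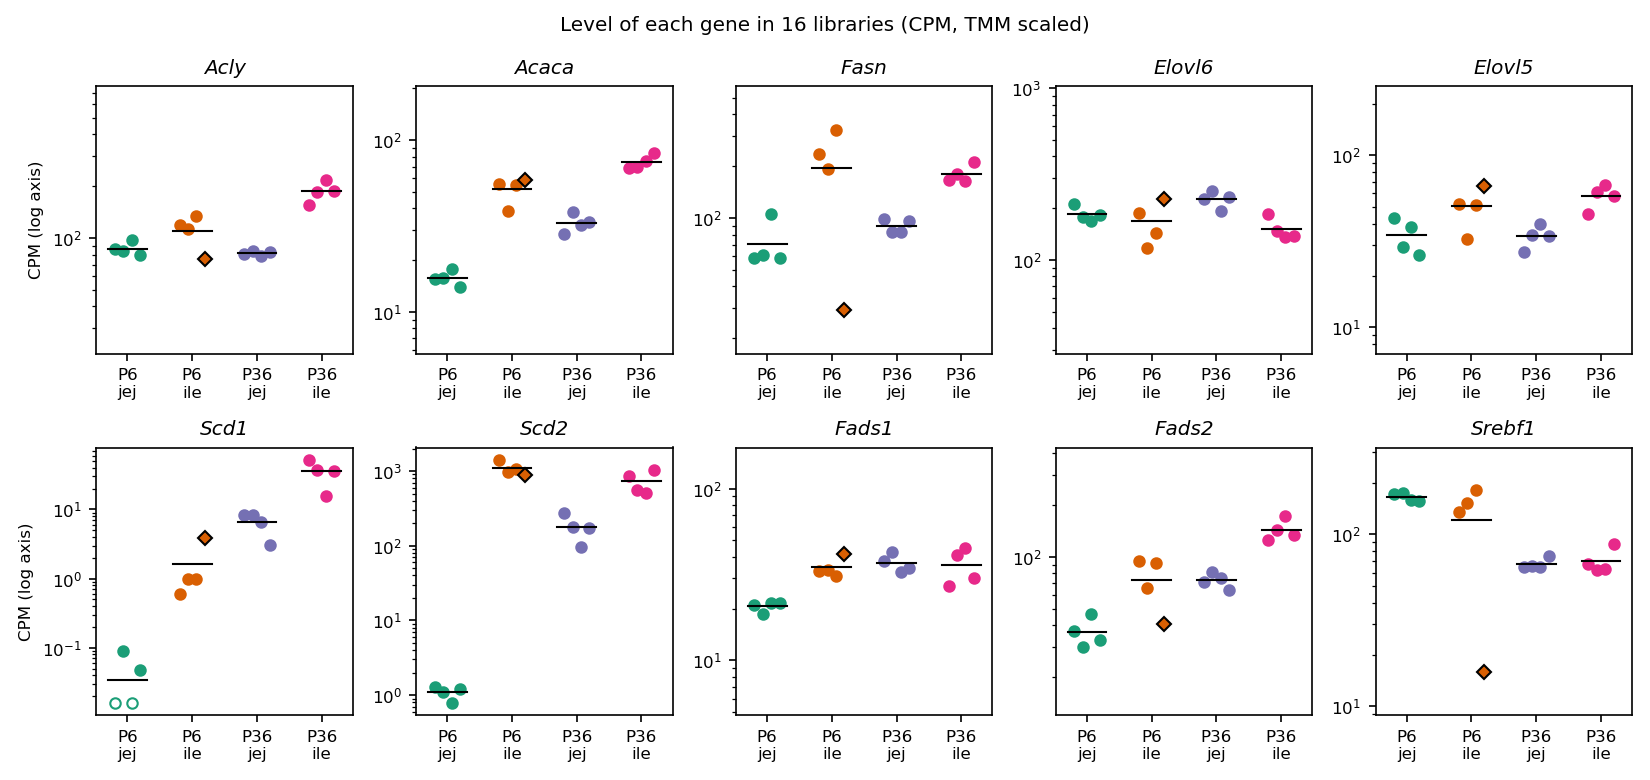
CPM on a log axis for each of the 10 genes in the 16 libraries, by group (jej, jejunum; ile, ileum), with the group mean as a bar. Diamonds mark P6 ileum replicate 4, and open circles mark the 2 P6 jejunum libraries with 0 counts of Scd1, drawn below the lowest measured value; Scd2 lies near 1 CPM in P6 jejunum and at 889 to 1422 CPM in P6 ileum.

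Acly encodes ATP citrate lyase, which supplies cytosolic acetyl-CoA (chr11:100476352-100528000, minus strand, mm10). Its level was 85.9, 83.4, 97.6 and 79.6 CPM in P6 jejunum replicates 1 to 4 and 119, 113, 133 and 74.9 in P6 ileum. At P36 it was 80.5, 83.7, 78.4 and 83.1 CPM in jejunum and 156, 186, 217 and 186 in ileum. The jejunum was thus flat with age, and the P36 ileum libraries lay above all others. Jejunum over ileum was -1.19 (SE 0.16, adjusted p = 7.8e-05) at P36 on the log2 scale and -0.34 (SE 0.15, adjusted p = 0.11) at P6. Without P6 ileum replicate 4, the P6 value was -0.49 (adjusted p = 0.003) and passed, as it did when scaled by library totals (-0.63, adjusted p = 0.012). In ileum Acly rose by 0.76 (SE 0.16, adjusted p = 0.00063) with age. The regional difference itself differed between ages, by 0.85 (SE 0.22, adjusted p = 0.023) for P6 minus P36. That call was lost without P6 jejunum replicate 3, P36 jejunum replicate 3 or P36 ileum replicate 2 (adjusted p up to 0.059), and when scaled by library totals (0.71, adjusted p = 0.081).

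Acaca encodes acetyl-CoA carboxylase 1, which makes malonyl-CoA for synthesis (chr11:84195438-84401651, plus strand). Its order was P36 ileum, P6 ileum, P36 jejunum and P6 jejunum, with no overlap between neighbouring groups. The libraries held 15.6, 15.7, 17.6 and 14.0 CPM in P6 jejunum and 55.3, 38.4, 54.7 and 58.7 in P6 ileum. They held 28.4, 38.3, 32.1 and 33.3 CPM in P36 jejunum and 68.8, 70.0, 75.1 and 84.0 in P36 ileum. The ileum was higher by 3.29-fold at P6 (adjusted p = 5.7e-07) and by 2.25-fold at P36 (adjusted p = 4.2e-05), in all 4 mice of each age. With age Acaca rose 2.10-fold in jejunum (adjusted p = 1.3e-05) and 1.44-fold in ileum (adjusted p = 0.0052). A difference between the ages in the regional effect was not called (-0.55, SE 0.20, adjusted p = 0.11). It passed, at -0.67 (adjusted p = 0.029), without P6 ileum replicate 2, the library that held mesenchymal markers.

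Fasn encodes fatty acid synthase (chr11:120805958-120824547, minus strand). In P6 jejunum it stood at 58.3, 60.9, 105 and 58.3 CPM and in P6 ileum at 236, 192, 325 and 29.3. In P36 jejunum it stood at 99.0, 83.4, 83.0 and 95.8 CPM and in P36 ileum at 166, 180, 164 and 212. Fasn was higher in the ileum of 3 mice at P6 and of all 4 at P36, the exception being the mouse of P6 ileum replicate 4. The P6 difference was -1.47 (SE 0.45, adjusted p = 0.023). With the mouse as a block it was -1.15 and no longer passed (adjusted p = 0.074), and it also failed in a fit of the 8 P6 libraries alone (-1.49, adjusted p = 0.12) and without P6 jejunum replicate 1, 2 or 4 or P6 ileum replicate 1 or 3 (adjusted p up to 0.075). Without replicate 4 it was -1.83 (adjusted p = 1.3e-05). At P36 the groups did not overlap, and the ileum was 2.00-fold higher with an adjusted p of 0.14; it passed with the added correction for GC content (-1.01, adjusted p = 0.022) and in a fit of the 8 P36 libraries alone (-0.98, adjusted p = 0.00053). No change with age passed, with 0.36 (95% interval -0.57 to 1.29) in jejunum and -0.11 (-1.04 to 0.81) in ileum, the latter -0.47 (adjusted p = 0.059) without replicate 4.

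The elongases differed from each other in direction. Elovl6 extends palmitate to stearate (chr3:129532386-129638493, plus strand), and Elovl5 extends polyunsaturated chains (chr9:77917365-77984519, plus strand). At P36, Elovl6 was at 226, 250, 191 and 231 CPM in jejunum and 185, 147, 135 and 137 in ileum. It was 1.49-fold higher in jejunum (adjusted p = 0.043), in all 4 mice, the one member called in that direction. The call held only without P36 jejunum replicate 3 or P36 ileum replicate 1 among the 8 fits that left out 1 library (adjusted p up to 0.12 in the others), and was lost when genes were left unfiltered, and when scaled by library totals (0.44, adjusted p = 0.078). At P6, Elovl6 ranged from 167 to 212 CPM in jejunum and from 117 to 226 in ileum, and these ranges overlapped. Elovl5 was at 27.5, 34.3, 40.1 and 33.9 CPM in P36 jejunum and 45.7, 61.1, 67.3 and 58.2 in P36 ileum, 1.71-fold higher in ileum (adjusted p = 0.019). The call was lost without P36 jejunum replicate 1, P36 ileum replicate 2 or P36 ileum replicate 3 (adjusted p up to 0.072). Its P6 difference of -0.56 had an adjusted p of 0.058. Without P6 ileum replicate 4, where Elovl5 was highest, it was -0.40 (adjusted p = 0.14). With the mouse as a block it passed (-0.54, adjusted p = 0.049). It also passed without P6 jejunum replicate 1 or P6 ileum replicate 2 (-0.72, adjusted p = 0.012 for the latter), with DESeq2 (-0.56, adjusted p = 0.043), when scaled by library totals (-0.85, adjusted p = 0.010) and with the title prefix as a covariate (-0.59, adjusted p = 0.041). Neither elongase was called with age in either region, although Elovl6 in jejunum (0.28) passed in a fit of the 8 jejunal libraries alone (0.29, adjusted p = 0.024). The ratio of Elovl6 to Elovl5, per kilobase of exon, was 3.16 ± 0.68 (SD, n = 4) in P36 jejunum and 1.26 ± 0.43 in P36 ileum.

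The stearoyl-CoA desaturases had by far the lowest levels of the 10 genes in P6 jejunum. Scd1 (chr19:44394450-44407709, minus strand) and Scd2 (chr19:44293676-44306862, plus strand) encode stearoyl-CoA desaturases, which place a double bond in stearate and palmitate. Scd2 stood at 1.26, 1.12, 0.788 and 1.20 CPM in P6 jejunum, from 29, 25, 15 and 25 counts. In P6 ileum it stood at 1422, 961, 1060 and 889 CPM. It was at 277, 176, 95.9 and 173 CPM in P36 jejunum and 852, 559, 513 and 1041 in P36 ileum. The low group was P6 jejunum alone. The other 3 groups held from 95.9 to 1422 CPM, and P6 ileum and P36 ileum overlapped. The regional difference was thus present at P36 too, at 4.11-fold (adjusted p = 0.00021), and it was larger at P6 by 7.90 on the log2 scale (SE 0.47, adjusted p = 5.4e-08). With age Scd2 rose 164-fold in jejunum (adjusted p = 3.8e-10), against -0.55 (SE 0.29, adjusted p = 0.12) in ileum; the ileal fall passed only without P36 ileum replicate 4 (-0.75, adjusted p = 0.049). Within single mice, the log2 difference of jejunum minus ileum, on CPM + 0.5, lay between -9.69 and -9.03 at P6 and between -2.59 and -1.62 at P36. Leaving out any 1 library moved the P6 fitted difference between -10.02 and -9.80.

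Scd1 was low beside its paralogue in all 4 groups. P6 jejunum held 3 counts of Scd1 in all, 0, 2, 0 and 1 in replicates 1 to 4. P6 ileum held 0.592, 0.991, 0.976 and 3.82 CPM. P36 jejunum held 8.30, 8.38, 6.47 and 3.04 CPM and P36 ileum 52.3, 37.6, 15.5 and 36.4. Because of the few counts in P6 jejunum, ratios are given with 95% intervals for counting error only: P6 ileum over P6 jejunum was 45.2 (15.1 to 222) and P36 jejunum over P6 jejunum was 187 (63.8 to 911). Replicate 4 gave 78 of the 131 counts in P6 ileum. Both differences passed the edgeR test (adjusted p = 0.00052 and 2.5e-06). The fitted P6 difference of -5.28 was -4.38 without P6 ileum replicate 4 and -6.17 without P6 jejunum replicate 2, and the fitted rise in jejunum of 7.31 was 8.20 without the latter. At P36 the ileum was 5.41-fold higher (adjusted p = 0.0035), and in ileum Scd1 rose 22.1-fold with age (adjusted p = 6.1e-06), 4.47 on the log2 scale, or 5.36 without P6 ileum replicate 4. The difference between the ages in the regional effect did not pass for Scd1 (-2.84, SE 1.15, adjusted p = 0.15), but did with DESeq2 (-3.05, adjusted p = 0.049).

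Per kilobase of exon, Scd2 made up 94.8% to 99.8% of Scd1 plus Scd2 on average in the 4 groups, and at least 91.7% in every library. The share was 99.8% ± 0.2 (SD, n = 4) in P6 ileum and 94.8% ± 1.9 in P36 ileum, so that the 2 ileal groups did not overlap. Scd1 thus went up with age in ileum where no change in Scd2 was called. The annotated exons of Scd1 share 2.97% of their 50-base words with Scd2, and Scd2 shares 2.66% with Scd1. The paralogues Scd3 and Scd4 were too low to test. Scd4 had 29 counts in P6 ileum and 20 in P36 ileum and 0 in both jejunal groups, at least 10.0-fold and 7.39-fold higher in ileum against a floor of 3 counts over the group. Scd3 had 3 counts, all in P6 ileum. Scd4 has 1.64% of its words in common with Scd2.

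Stearoyl-CoA desaturases are abundant in fat cells, so adipocyte markers were read beside them. Adipoq, Plin1, Lep, Cfd and Retn were at 0 counts in all libraries of P6 jejunum, P6 ileum and P36 jejunum, and in P36 ileum all of these but Adipoq were at 0. The 7 adipocyte markers other than Cidec summed to at most 0.737 CPM in any library. Cidec, a lipid droplet protein, was at 339 to 402 CPM in P6 jejunum, the group lowest in Scd2, and at 3.27 to 118 in the ileal groups. P6 ileum replicate 2, with its mesenchymal markers, had 961 CPM of Scd2, between the values of the other P6 ileum libraries.

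**Figure D3:**
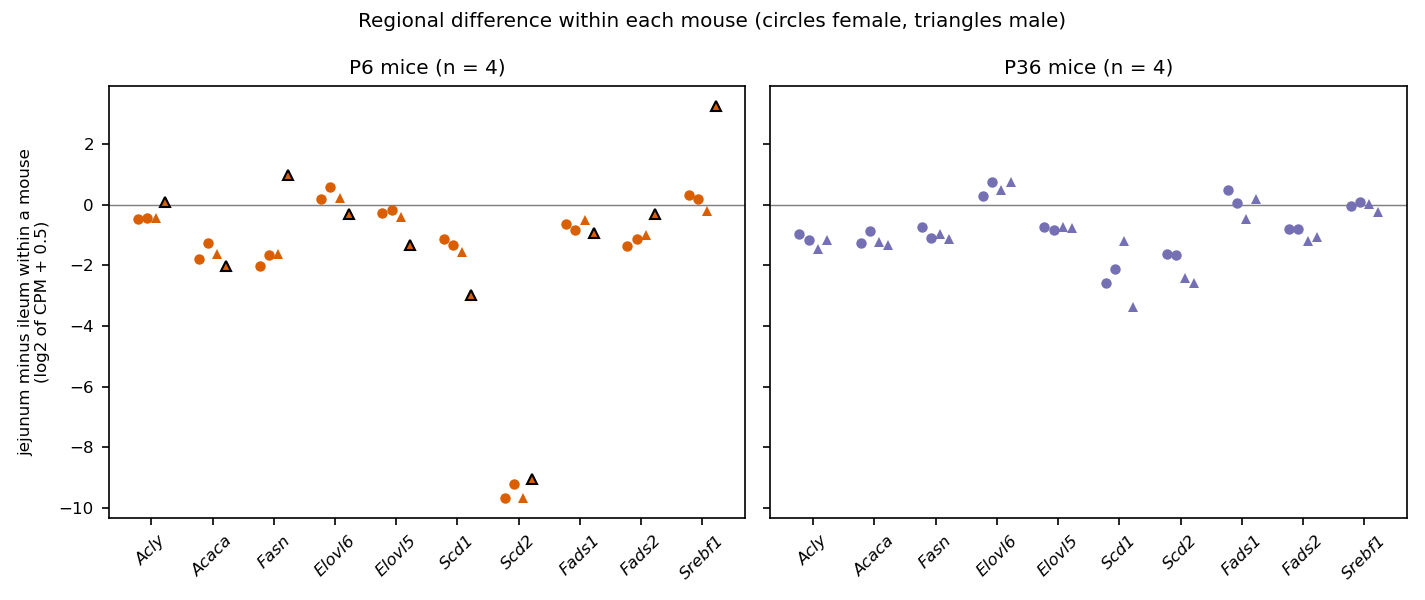
Jejunum minus ileum within each mouse, on the log2 scale of CPM + 0.5 (vertical axis), for the 10 genes at P6 (left) and P36 (right), with 4 mice per age; circles are female and triangles male, and black outlines mark the mouse of P6 ileum replicate 4. Scd2 lies between -9.69 and -9.03 at P6 and between -2.59 and -1.62 at P36.

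Fads1 and Fads2 encode the delta-5 and delta-6 desaturases and lie close together on chromosome 19 (Fads1 at 10182888-10196872, plus strand; Fads2 at 10064164-10101503, minus strand). Fads2 stood at 36.8, 30.1, 46.6 and 32.9 CPM in P6 jejunum, 94.2, 65.9, 92.3 and 40.9 in P6 ileum, 71.7, 81.5, 75.3 and 64.4 in P36 jejunum and 126, 142, 173 and 134 in P36 ileum. Within an age the regions overlapped only at P6, through ileum replicate 4, and P6 ileum and P36 jejunum overlapped each other. Fads2 was 2.00-fold higher in ileum at P6 (adjusted p = 0.0032) and 1.96-fold at P36 (adjusted p = 0.0062). It rose 2.00-fold with age in jejunum (adjusted p = 0.0013) and 1.96-fold in ileum (adjusted p = 0.0014). The interaction was -0.03 with a 95% interval of -0.68 to 0.62. Fads1 stood at 20.9, 18.5, 21.7 and 21.6 CPM in P6 jejunum and at 33.0, 33.4, 30.9 and 41.8 in P6 ileum. It stood at 37.7, 42.7, 32.7 and 34.4 CPM in P36 jejunum and 27.0, 41.1, 45.01 and 30.3 in P36 ileum. P6 jejunum was the low group, and the other 3 overlapped. Fads1 was 1.68-fold higher in ileum at P6 (adjusted p = 0.0031) and rose 1.78-fold in jejunum with age (adjusted p = 0.00051), while the P36 regional difference was 0.04 (95% interval -0.30 to 0.39). The interaction of -0.79 (SE 0.23) passed narrowly (adjusted p = 0.044). It failed with the mouse as a block (-0.81, adjusted p = 0.052) and with sex as a covariate (-0.79, adjusted p = 0.053). It also failed when genes were left unfiltered (-0.76, adjusted p = 0.077). Of the 16 fits that left out 1 library, it failed in 11 (adjusted p up to 0.098). It held without P6 ileum replicate 3 or 4, P36 jejunum replicate 3 or P36 ileum replicate 2 or 3. Per kilobase of exon, the ratio of Fads2 to Fads1 was 9.40 ± 1.25 (SD, n = 4) in P36 ileum and 4.58 ± 0.47 in P36 jejunum, and the libraries of the 2 groups did not overlap.

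Srebf1 encodes SREBP-1, the transcription factor that drives many of these genes (chr11:60199089-60220604, minus strand). It was the one member that fell in jejunum. It stood at 172, 173, 158 and 157 CPM in P6 jejunum and at 136, 153, 181 and 15.8 in P6 ileum, and at 65.1, 65.7, 64.7 and 75.4 in P36 jejunum and 67.5, 62.0, 62.9 and 88.1 in P36 ileum. All 4 P36 jejunum libraries lay below all 4 P6 jejunum libraries, and no difference between regions was called at either age. The fall in jejunum was 2.44-fold (log2 -1.29, SE 0.44, adjusted p = 0.021). It failed with the mouse as a block (adjusted p = 0.06) and without P36 jejunum replicate 3 (-1.18, adjusted p = 0.063), and with the GC correction its adjusted p was 0.00055. In ileum the change of -0.79 (SE 0.43, adjusted p = 0.13) became -1.16 (adjusted p = 1.6e-06) without P6 ileum replicate 4, -0.75 (adjusted p = 0.020) with the GC correction and -0.34 (adjusted p = 0.61) with the mouse as a block. For ages the blocked fit also changed the method from edgeR to limma voom, so that block and method cannot be told apart. At P6 the regional value went from 0.44 to 0.08 (adjusted p = 0.67) without P6 ileum replicate 4.

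**Figure D4:**
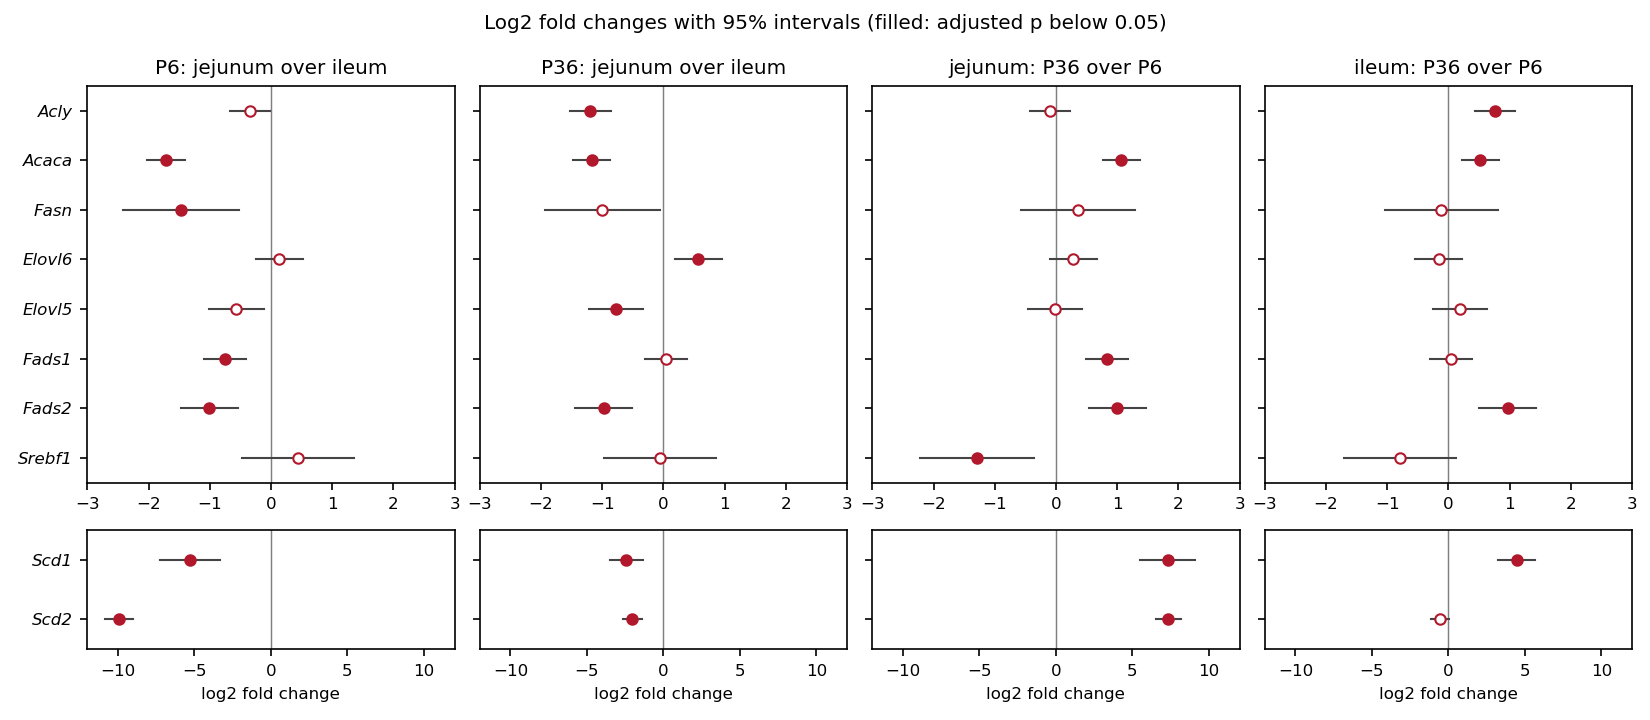
Log2 fold changes (horizontal axes) of the 10 genes in the 4 pairwise comparisons, with 95% intervals as lines; filled points passed an adjusted p below 0.05. Scd1 and Scd2 have their own wider axis, and the intervals of Fasn and Srebf1, the 2 members most depleted in P6 ileum replicate 4, are the widest of the other 8.

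The order of the members within a group, in RPKM (CPM per kilobase of exon), also changed. In P6 jejunum Srebf1 (38.4 ± 2.0, SD, n = 4) and Elovl6 (31.1 ± 3.2) were highest, and Scd2 (0.20 ± 0.04) and Scd1 (0.0071 ± 0.0089) lowest. In P6 ileum Scd2 was first at 199 ± 43 RPKM, above Fads2 at 48.6 ± 16.7, and in P36 ileum Scd2 at 136 ± 46 was followed by Fads2 at 95.4 ± 13.6. In P36 jejunum Fads2 (48.6 ± 4.7), Elovl6 (37.8 ± 4.1) and Scd2 (33.1 ± 13.7) led, the last spread over 17.6 to 50.9 RPKM. Scd1 was last in each of the 4 groups. Acaca, the enzyme of the committed step, was next to last in 3 groups, and in P6 jejunum only Scd1 and Scd2 were below it.

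Upstream sequence is shown for Fasn, Elovl5 and Fads2, 3 of the members that were higher in ileum at 1 or both ages. The SREBP family and its partners act at such sites. Acly and Acaca were also higher in ileum and are not printed, but their matches are given below. RefSeq holds a start for 7 of the 10 members in its GRCm38.p6 table (Acly, Acaca, Fasn, Elovl5, Elovl6, Fads2 and Srebf1). The 250 bases before each start are printed 5′ to 3′ on the gene's strand, with E-boxes (CACGTG) and CCAAT boxes (CCAAT or its reverse complement) in capitals. They lie at chr11:120824548-120824797 (minus), chr9:77917115-77917364 (plus) and chr19:10101504-10101753 (minus).
Fasn: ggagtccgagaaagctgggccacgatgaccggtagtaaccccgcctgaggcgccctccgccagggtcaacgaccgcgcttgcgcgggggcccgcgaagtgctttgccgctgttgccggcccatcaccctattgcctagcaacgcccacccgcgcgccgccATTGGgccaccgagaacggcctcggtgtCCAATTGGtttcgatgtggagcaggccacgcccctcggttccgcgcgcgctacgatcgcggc
Elovl5: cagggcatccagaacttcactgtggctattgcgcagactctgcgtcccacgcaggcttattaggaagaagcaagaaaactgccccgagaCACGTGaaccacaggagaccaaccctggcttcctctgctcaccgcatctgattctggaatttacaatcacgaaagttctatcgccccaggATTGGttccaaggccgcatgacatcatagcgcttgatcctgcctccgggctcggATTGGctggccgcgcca
Fads2: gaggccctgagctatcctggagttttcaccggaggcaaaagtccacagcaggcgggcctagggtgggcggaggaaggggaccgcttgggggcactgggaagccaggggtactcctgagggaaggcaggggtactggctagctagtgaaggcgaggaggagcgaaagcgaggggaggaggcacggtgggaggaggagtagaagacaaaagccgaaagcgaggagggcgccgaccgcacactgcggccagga

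Over the window from 250 bases before to 50 after each start, searched on both strands, Fasn held 3 CCAAT matches, starting at -90, -62 and -59, of which the last 2 overlap. Elovl5 held an E-box at -161 and CCAAT matches at -71 and -17. Fads2 held neither motif but 1 GC box (GGGCGG) at -186. Acly held 1 CCAAT match and 4 GC boxes, and Srebf1 2 and 5 over its 3 starts. Acaca and Elovl6 held 0 matches to these motifs. Of the 7 members with a start, only Elovl5 held an E-box. CCAAT occurred in 41.1% of all 27025 genes with such a window, the GC box in 38.2% and the E-box in 8.09%. The letters TCACNCCAC, a core of the sterol regulatory element, were not in the window of any of the 7 members and were found in 1.44% of genes. A match is a description of the letters, and its absence here says only that they are not in this window.

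The 10 genes were set against 48 other genes of the same pathway, of which 41 were tested (Thrsp, Elovl3, Elovl4, Hacd4, Scd3, Scd4 and Fads6 were too low). In this wider list 8 genes were higher in P6 ileum and 7 in P6 jejunum (14.8% and 11.1% of all genes), with a median log2 difference of -0.11 beside -0.05 for all genes. Scaled by library totals, 19 and 5 were, beside 4077 and 893 of all genes. At P36, 4 were higher in each region (7.8% and 8.3% of all genes for ileum and jejunum), with a median of -0.17 beside -0.04 for all genes. When scaled by library totals, 8 were higher in ileum and 3 in jejunum, beside 1473 and 896 of all genes. With age, 18 rose and 11 fell in jejunum (24.7% and 26.9% of all genes; medians 0.16 and -0.01), and 17 rose and 8 fell in ileum (25.5% and 30.1%; medians 0.38 and -0.03). The difference between these genes and the 10 members was not tested.

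Among suppliers of acetyl-CoA and NADPH, Me1 (malic enzyme 1, a source of NADPH) stood at 156, 90.4, 144 and 84.5 CPM in P6 jejunum, above the 30.7 to 64.1 of P6 ileum (1.35, SE 0.34, adjusted p = 0.0084). In jejunum it fell by 2.18 on the log2 scale with age (adjusted p = 7.9e-05). Its ileal fall of -0.99 (adjusted p = 0.022) was lost without P6 ileum replicate 4 (adjusted p = 0.06) or P36 ileum replicate 1. Pdk4, a kinase that restrains pyruvate dehydrogenase, was at 66.3 to 103 CPM in P6 jejunum and 14.0 to 23.3 in P6 ileum (2.25, SE 0.72, adjusted p = 0.032). That call held only without P6 jejunum replicate 2 or P6 ileum replicate 4 among the 8 fits that left out 1 library (adjusted p up to 0.07 in the others). With age Pdk4 fell by 4.02 in jejunum (adjusted p = 0.0005) and fell by 3.66 in ileum (adjusted p = 0.0014). These values were -4.77 without P36 jejunum replicate 1 and -5.90 without P36 ileum replicate 2, the latter library holding 84 of the 100 counts of its group. Both genes were thus highest in the group where Scd1, Scd2 and Acaca were lowest.

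Of the palmitate synthesis genes, Olah, a thioesterase that releases medium-chain fatty acids from fatty acid synthase, was at 2.47 CPM or more in each P6 jejunum library and 0.358 ± 0.093 (SD, n = 4) in P6 ileum (3.06, SE 0.36, adjusted p = 0.0002). It had 0 counts in all 8 P36 libraries, so that P6 was at least 82.0-fold higher in jejunum and at least 8.85-fold higher in ileum, against a floor of 3 counts over the P36 group. Acacb, the mitochondrial acetyl-CoA carboxylase, was at 8.68, 2.72, 6.56 and 2.39 CPM in P6 jejunum and 1.19, 0.862, 0.271 and 0 in P6 ileum, the reverse of Acaca (3.11, SE 0.75, adjusted p = 0.006). It rose in ileum with age by 2.96 (SE 0.75, adjusted p = 0.0032), from 49 counts in P6 ileum. That rise was 3.57 without P6 ileum replicate 1 and 2.55 without P6 ileum replicate 4. The P6 regional value was 3.68 and 2.70 in the same fits. Mid1ip1, an activator of acetyl-CoA carboxylase, rose in both regions, from 3.65 ± 0.29 to 27.3 ± 3.8 CPM in jejunum (adjusted p = 2.8e-06) and from 5.74 ± 2.90 to 44.7 ± 5.5 in ileum (adjusted p = 2.1e-06).

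Elongation and desaturation also held genes on each side. Elovl2, which elongates very long polyunsaturated chains, was at 8.48 to 14.5 CPM in P6 jejunum and 0.490 to 1.08 in P6 ileum (3.88, SE 0.39, adjusted p = 2.8e-06), and its regional difference was larger at P6 than at P36 by 4.72 (SE 0.70, adjusted p = 0.00051). With age it fell by 6.52 in jejunum and fell by 1.80 in ileum, to 9 and 15 counts over the 4 libraries of each P36 group. Elovl7 rose in both regions, from 24.0 ± 3.5 to 111 ± 9 CPM in jejunum (adjusted p = 1.2e-06) and from 31.6 ± 15.1 to 139 ± 7 in ileum (adjusted p = 1.7e-06). Cyb5r3 and Cyb5a encode cytochrome b5 reductase 3 and cytochrome b5, the electron carriers of the desaturases. In jejunum Cyb5r3 rose from 119 ± 6 to 562 ± 77 CPM (adjusted p = 9.0e-07) and Cyb5a from 79.4 ± 19.3 to 338 ± 26 (adjusted p = 1.5e-06). In ileum neither was called, at 0.11 (adjusted p = 0.69) and 0.38 (adjusted p = 0.15). Without P6 ileum replicate 4 these were -0.10 and 0.63, of which Cyb5a passed (adjusted p = 0.0097), as it did with the title prefix as a covariate (0.44, adjusted p = 0.013). At P36 both were higher in jejunum, Cyb5r3 by 2.17 (SE 0.24, adjusted p = 1.3e-05) and Cyb5a by 1.19 (SE 0.22, adjusted p = 0.0017), opposite to Scd1, Scd2 and Fads2. The difference between the ages passed for both (-2.13 and -1.71, adjusted p = 0.00065 and 0.0028).

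**Figure D5:**
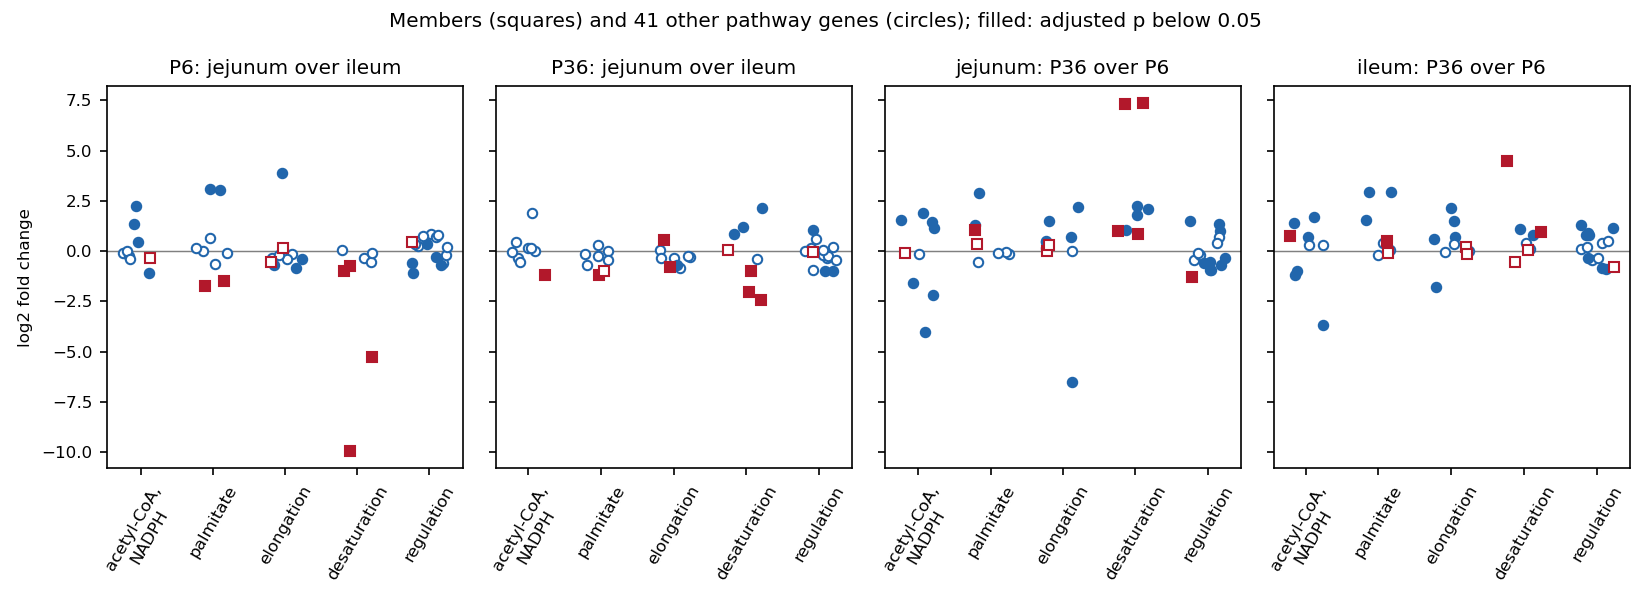
Log2 fold changes (vertical axis) of the 10 members (squares) and the 41 other tested pathway genes (circles) by role in the 4 pairwise comparisons; filled symbols passed an adjusted p below 0.05. Olah is drawn only for the P6 regions because it had 0 counts at P36, and Scd2 at P6 lies lowest, at -9.94.

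Markers of other epithelial cells also differed by age. Summed Paneth cell markers went from 11.6 to 52.2 CPM across the P6 libraries to 3037 to 10770 across the P36 libraries, goblet markers from 1626 to 3915 to 7188 to 17070, and cycling markers from 184 to 415 to 477 to 925. Summed enteroendocrine markers overlapped between ages in jejunum, at 115 to 144 CPM at P6 and 122 to 168 at P36. In ileum they went from 103 to 122 CPM at P6 to 51.05 to 76.6 at P36. The part of these cell markers in the age comparisons of the 10 genes was not tested. The EDTA incubation in the study's methods differed between ages as well, so that age and handling cannot be told apart. With a minimum absolute log2 fold change of 2 added, Scd1 and Scd2 were the members left in both regional comparisons and in jejunum with age, and Scd1 alone in ileum with age. The share of all genes then called was 6.5% at P6, 3.6% at P36 and 16.4% in each age comparison. Of the 10 members, Acly, Fads1 and Scd2 were called as different between the ages in their regional effect. The calls of Acly and Fads1 were lost in some refits. Of all genes, 3.68% were called with a larger value of jejunum over ileum at P6, the direction of Acly, and 5.01% with a smaller one, the direction of Fads1 and Scd2.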

How the data were processed

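Bulk RNA sequencing libraries (Kapa stranded mRNA kit) of jejunal and ileal epithelium were grouped by the region and age in the labels, 4 libraries from 4 mice per group. The deposited files hold raw counts per gene. Per the file headers and the submitters' processing notes, the authors trimmed reads with Trimmomatic 0.38, aligned them with STAR (2.5.3 in the notes; the study's methods give another version) to mm10 and counted read pairs over exons on the reverse strand with featureCounts 1.6.3. The files also give each gene's deposited exon length, used for RPKM.

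The 10 members and the pathway and marker lists were chosen with earlier results of these data known. Counts were tested with edgeR 4.0.16 in R 4.3.3 (TMM, filterByExpr, quasi-likelihood F test) on 4 group means over 16 libraries, with Benjamini-Hochberg adjustment over 13429 genes. Log2 fold changes are jejunum over ileum or P36 over P6. A call is an adjusted p below 0.05. All 10 members are named; other pathway genes are named if called with a log2 change beyond 2 either way in at least 1 pairwise comparison, besides Scd3 and Scd4. Regions pair by mouse: deviations of the 8 same-mouse pairs correlated at 0.16 to 0.39 (24 other pairs, -0.37 to 0.23). The blocked fit had a term per mouse for regions and the interaction, and limma 3.58.1 voom with duplicateCorrelation for ages. DESeq2 1.42.0, other scalings, filters, a sex covariate, fits on 8 libraries and leaving out each library were alternatives; a GC correction (loess, span 0.3) and a covariate for the title prefix at P6 were added after seeing the data. Scripts were tested on simulated data. No 2 replicates were copies (chi-square per gene 13.2 to 272). Depth of 12159237 to 25947276 counts limits precision most for genes of few counts (Scd1, Scd3, Scd4, Olah, Elovl2 and Acacb), and intervals of count ratios cover counting error only.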

Additional observations from a re-analysis of the deposited data

Results flagged for a closer look

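Fasn in P6 jejunum replicate 3 was at 105 CPM, far from the 58.3 to 60.9 of the other 3 libraries. Scd1 in P6 ileum replicate 4, the library depleted of GC-rich genes, was at 3.82 CPM against 0.592 to 0.991. Srebf1 in P36 jejunum replicate 4 was at 75.4 CPM against 64.7 to 65.7. Such gaps were looked for in 40 groups of 4 values, of which chance alone flags about 1 in 20; 3 were found. Fasn and Srebf1 in P6 ileum replicate 4 were not among them. The search was made on CPM and not on a log scale.

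The regional effect (jejunum over ileum) differed between P6 and P36 by 0.85 for Acly, by -7.90 for Scd2 and by -0.79 for Fads1 on the log2 scale, by the interaction test of the edgeR fit (adjusted p = 0.023, 5.4e-08 and 0.044). Scd2 passed in all 16 fits that left out 1 library, Acly in 13 and Fads1 in 5.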

How the results depend on the processing

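The 50 member fold changes kept their direction and side of the threshold in 504 of 540 refits with another setting and in 424 of 480 that left out 1 library. The regional calls of Scd2, Scd1, Acaca and Fads2, of Fads1 at P6 and of Acly at P36 held in each of these refits. Every value below that changed sign was uncalled in both fits, and the causes were not tested. Scaling by library totals moved the median of all genes by -0.29 at P6, -0.14 at P36 and -0.15 for the interaction, and the share of calls that were positive from 42.9% to 18.0%, from 51.5% to 37.8% and from 42.3% to 24.2%. Under it 8 members, 24 list genes and 4970 genes in all passed at P6 (6, 15 and 3484 otherwise). Of the list genes, 5 were higher in jejunum and 19 in ileum (7 and 8 otherwise). Log2 values under this scaling were -0.154 for Elovl6 and -0.244 for Cyb5r3 at P6, and -0.121 for Fads1 and -0.005 for Me1 at P36. They were 0.004 for Acly and 0.088 for Elovl5 in jejunum with age, and -0.09 for the interaction of Mid1ip1. Acacb at P36 read 0.001 with a mean CPM of at least 1 and 0.03 on the 8 libraries compared. Elovl5 in jejunum with age read 0 with DESeq2 and with median-of-ratios scaling, 0.001 on 8 libraries, 0.006 with the mouse as a replicate block and 0.004 with block and GC correction. The block also gave 0.318 for Fasn in ileum with age (0.085 with GC correction), and interactions of 0.018 for Fads2, 0.029 for Elovl7 and -0.038 for Pdk4; for Elovl7 the GC correction gave 0.145, and 0.15 with the block. With the title prefix at P6 as a covariate Elovl5 and Acacb in jejunum with age read 0.007 and 0.043, Fasn in ileum with age 0.017 and the interaction of Fads2 0.01, and of the members' calls only Elovl5 at P6 changed. Besides the changes given with the genes, the block changed no other call of a member.

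Requiring an absolute log2 fold change above 2 left 2 members, 4 list genes and 873 genes in all at P6, 2, 1 and 484 at P36, 2, 8 and 2209 in jejunum with age, 1, 5 and 2204 in ileum with age and 1, 2 and 453 for the interaction. List genes called at P36 were 8, with 2163 genes in all. They were 18 on the 8 libraries (2959 in all) and 16 with the GC correction (3134 in all). With that correction and the block they were 17 (3857 in all). Interaction calls were 6 list genes and 1167 genes in all, and 11 and 1776 with the GC correction and 13 and 2267 with it and the block.

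Leaving out 1 library gave 5 to 8 list genes and 1418 to 2726 genes in all at P36, and 1 to 3 members, 4 to 11 list genes and 835 to 1912 genes for the interaction, the highest without P6 ileum replicate 4. Log2 values that crossed 0 ran from -0.008 to 0.312 for Elovl6 and -0.166 to 0.161 for Cyb5r3 at P6. At P36 they ran from -0.075 to 0.169 for Fads1, -0.106 to 0.076 for Srebf1, -0.503 to 0.342 for Acacb and -0.08 to 0.363 for Me1. In jejunum with age they ran from -0.13 to 0.009 for Acly, -0.12 to 0.114 for Elovl5 and -0.648 to 0.24 for Acacb. In ileum with age they ran from -0.474 to 0.258 for Fasn, -0.299 to 0.02 for Elovl6, -0.079 to 0.165 for Fads1 and -0.097 to 0.262 for Cyb5r3. For the interaction they ran from -0.225 to 0.093 for Fads2, -0.259 to 0.307 for Elovl7, -0.255 to 0.243 for Mid1ip1 and -1.93 to 1.118 for Pdk4.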
